A study of Mus musculus with 8 samples.

Results

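Integrins and the proteins that tie them to the actin cytoskeleton were followed in sorted basal cells of the mouse mammary gland. The set was a list of 36 gene symbols, matched to the Entrez identifiers of the count tables through RefSeq. It held 17 integrin alpha subunits, 8 beta subunits and 11 linker genes, and all 36 were found among the 27164 genes of the tables. RNA was sequenced from 8 libraries of 4 populations, with 2 libraries each, where T8 stands for Tspan8: cells that were Lgr5+T8hi, cells that were Lgr5-T8hi, cells that were Lgr5+T8- and cells that were Lgr5-T8-. All came from untreated 10-week-old C57BL/6 females with the genotype Lgr5-GFP-IRES-CreERT2, so the reporter allele was common to every population. In this allele a green fluorescent protein and an inducible Cre recombinase are made under control of Lgr5, which encodes an R-spondin receptor used as a stem cell marker in the intestine and elsewhere. Tspan8 is a tetraspanin, a membrane protein of a family known to associate with integrins. The labels give neither the markers of the basal gate nor the number of mice behind a library. p-values therefore measure the spread between these libraries, which may be technical.

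An integrin is a pair of an alpha and a beta subunit that spans the membrane and binds matrix proteins outside the cell, mainly laminins, collagens, or proteins with the Arg-Gly-Asp motif such as fibronectin and vitronectin. Inside the cell, talins and kindlins bind the beta tail and switch the receptor on, and vinculin, paxillin, focal adhesion kinase and the complex of integrin-linked kinase, PINCH and parvin couple it to actin and to signalling. Mammary basal cells sit on the basement membrane, contract during milk ejection, and are commonly sorted by their high surface levels of the Itga6 and Itgb1 proteins. The sources used here do not say whether these antibodies set the gate.

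Libraries held 24571300 to 38384875 counts, and 0.545 to 0.707% of them fell on the 36 genes. CPM values, counts scaled to a common library size, were computed on sizes adjusted by trimmed means of M values. A floor of 3 counts corresponded to 0.0782 to 0.122 CPM. The sort genes followed the labels for Tspan8, at 275 ± 19.5 CPM in the Lgr5+T8hi libraries, 159 ± 11.7 CPM in the Lgr5-T8hi libraries, 8.7 ± 2.66 CPM in the Lgr5+T8- libraries and 3.76 ± 0.851 CPM in the Lgr5-T8- libraries (SD, n = 2 libraries each). Lgr5 averaged 184 ± 13.5 CPM in Lgr5+T8hi libraries, against 124 ± 6.62 CPM in Lgr5-T8hi libraries, and 199 ± 19.4 CPM in Lgr5+T8- libraries, against 54.4 ± 5.55 CPM in Lgr5-T8- libraries, so the Lgr5-T8hi libraries, too, held Lgr5 RNA. Basal genes were abundant throughout, with Krt5 at 2106 to 2753 CPM and Acta2 at 3330.0 to 6760.0 CPM. Luminal keratin RNA was present as well, with Krt8 at 427 to 835 CPM.

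Levels were compared between genes only per length, as RPKM, the CPM divided by the gene length in kilobases given in the tables. Itgb1, the common beta subunit, had the highest level at a mean of 233 RPKM over the 8 libraries (200.5 to 269). Next came Itga6 with 131 RPKM, Vcl with 120.4, Itga3 with 106, Pxn with 98.1, Parva with 79.9, Fermt2 with 78.8 and Ilk with 75.8 RPKM. Among alpha subunits, Itga6 made up 33.4% of the summed RPKM, Itga3 27.2% and Itga5 12.8%. Of the beta subunit total, Itgb1 made up 69.6%, Itgb4, which pairs with Itga6 in hemidesmosomes, 12.6%, and Itgb5 11.2%. The library ranges of Itga6 (98.5 to 189.7 RPKM), Itga3 (86.2 to 131 RPKM) and Vcl (93.2 to 161 RPKM) overlapped, so their order is not separated beyond the spread. At the low end, Itgam averaged 0.146 RPKM and Itgax 0.0819 RPKM. A mean of at least 1 CPM was reached by 34 genes, all except Itgam and Itgax, and a mean of at least 100 CPM by 15.

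**Figure D1:**
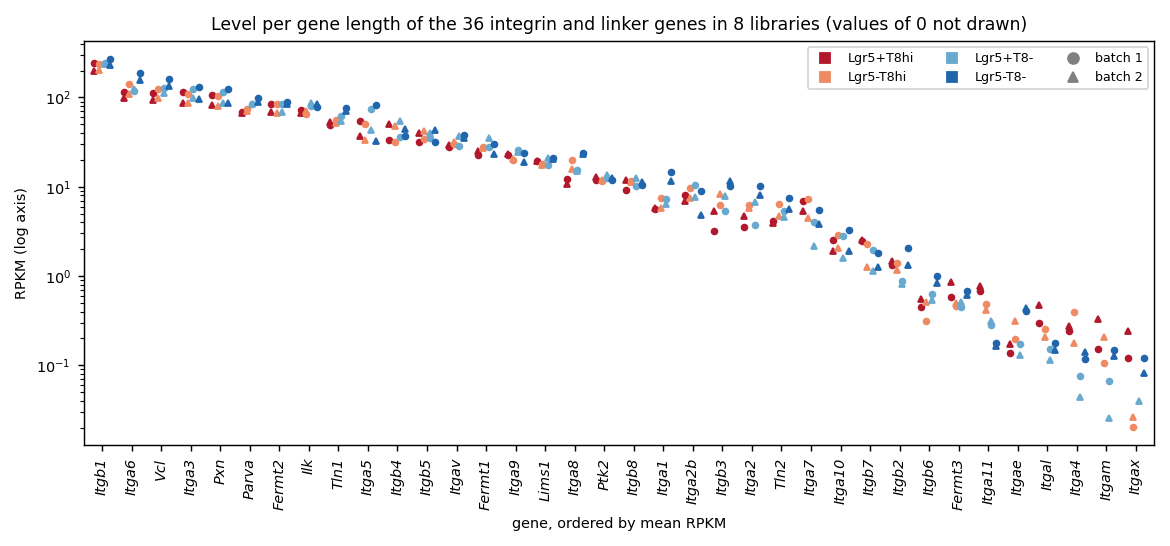
RPKM on a log axis of each of the 36 genes in each of the 8 libraries, with genes ordered by their mean. Itgb1 stands highest at 200.5 to 269 RPKM, the matrix-binding subunits of epithelium and most linkers follow, and the leukocyte subunits Itgam and Itgax are lowest, with the Itgax value of 0 in a Lgr5+T8- library not drawn.

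The first question the sort poses is how T8hi cells differed from T8- cells. Averaged over both Lgr5 levels, 10 of the 36 genes were lower and 4 were higher in T8hi cells by edgeR's quasi-likelihood test (adjusted p below 0.05, all 16526 genes tested). The lower genes were the subunits Itga1, Itga6, Itga8, Itgb3 and Itgb6 and the linkers Tln1, Tln2, Ilk, Vcl and Parva, and the higher genes were Itga4, Itga7, Itga11 and Itgal. That is 38.9% of the set, beside 14.6% of all genes tested (9.13% higher and 5.52% lower). On simulated counts the share of false calls lay above this threshold, as given with the processing, which bears on every call here. The median log2 difference of the 36 genes was -0.12, beside -0.02 over all genes. All 14 differences had the same sign within batch 1 and within batch 2. These genes were picked by a fit over both batches, which favours the same sign, so this is no separate support. Without Lgr5-T8hi replicate 1, 3 genes were higher and 4 lower, without Lgr5-T8hi replicate 2, 5 were higher and 5 lower, and without the batch term 2 were higher and 1 was lower.

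In sorted bulk RNA, fewer cells of a type and less RNA per cell cannot be told apart. Marker genes of several cell types moved with the T8 gate. Of 16 basal markers, 8 were lower and 1 was higher in T8hi cells. Their summed level was 20617 to 23822 CPM in T8hi libraries, against 27094 to 30215 CPM in T8- libraries. Those with the smallest edgeR adjusted p, all lower, were the contractile genes Actg2, Myh11 and Acta2. The basal keratin Krt5 ran from 2227 to 2614 CPM in T8hi and 2106 to 2753 CPM in T8- libraries. Krt14 ran from 3876 to 5733 CPM in T8hi and 3708 to 6236 CPM in T8- libraries. Trp63 ran from 173 to 239 CPM in T8hi and 228 to 350.4 CPM in T8- libraries. Among 15 fibroblast markers, 13 were higher and 1 lower, with sums of 928 to 1503 CPM in T8hi and 599 to 999.9 CPM in T8- libraries. Of 15 endothelial markers 8 were higher, with sums of 239 to 806 CPM in T8hi and 170.2 to 333 CPM in T8- libraries, and of 10 pericyte markers 8 were higher, with sums of 275 to 468 CPM in T8hi and 238 to 424 CPM in T8- libraries. Luminal markers were higher for 15 of 21 genes, at 2017 to 3207 CPM in T8hi and 1427 to 2765 CPM in T8- libraries, and Schwann cell markers for 4 of 10, at 241 to 285 CPM in T8hi and 191 to 226 CPM in T8- libraries. The part of these shifts in the integrin differences was not tested.

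The second question is how Lgr5+ cells differed from Lgr5- cells. Averaged over both T8 levels, 6 genes were lower in Lgr5+ cells, namely Itga1, Itga6, Itga8, Itgae, Itgb3 and Tln2, and 1 was higher, Itga11. This is 19.4% of the set, beside 9.09% of all genes tested (4.23% higher and 4.86% lower). All 7 had the same sign in both batches, which their selection over both batches favours. The median log2 difference was -0.07, beside 0.01 over all genes. The count was 4 without either Lgr5+T8hi replicate and 1 without the batch term, all lower, and without Lgr5-T8- replicate 1 it was 10, with 4 higher and 6 lower. Basal markers were divided, with 4 higher and 4 lower of 16 and sums of 20617 to 30215 CPM in Lgr5+ and 21537 to 29012 CPM in Lgr5- libraries. Fibroblast markers were higher for 6 and lower for 2 of 15, at 599 to 1503 CPM in Lgr5+ and 927 to 1123 CPM in Lgr5- libraries. Luminal markers were higher for 6 and lower for 4 of 21, at 1698 to 3207 CPM in Lgr5+ and 1427 to 2933 CPM in Lgr5- libraries. Of 10 Schwann cell markers 3 were lower, with sums of 191 to 284 CPM in Lgr5+ and 206 to 285 CPM in Lgr5- libraries, and of 10 pericyte markers 1 was higher and 2 were lower, with sums of 262 to 468 CPM in Lgr5+ and 238 to 393 CPM in Lgr5- libraries. Of 16 leukocyte markers 1 was higher, and of 15 endothelial markers 0 passed in edgeR or limma-voom and 1 was higher in DESeq2 and at an unadjusted edgeR p below 0.05. The part of these shifts in the integrin differences was not tested.

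Itga1, Itga6, Itga8, Itgb3 and Tln2 were lower in both comparisons. The share of all genes tested that were lower in both was not counted. Both comparisons use the same 8 libraries and have Lgr5-T8- on the subtracted side, so this is no repeat. A gene high in Lgr5-T8- cells alone would come out lower in both. The Lgr5-T8- population, labelled negative for both sort markers, had the highest mean CPM of the 4 populations for 19 of the 36 genes, 52.8% of them, beside 31.3% of all genes tested.

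**Figure D2:**
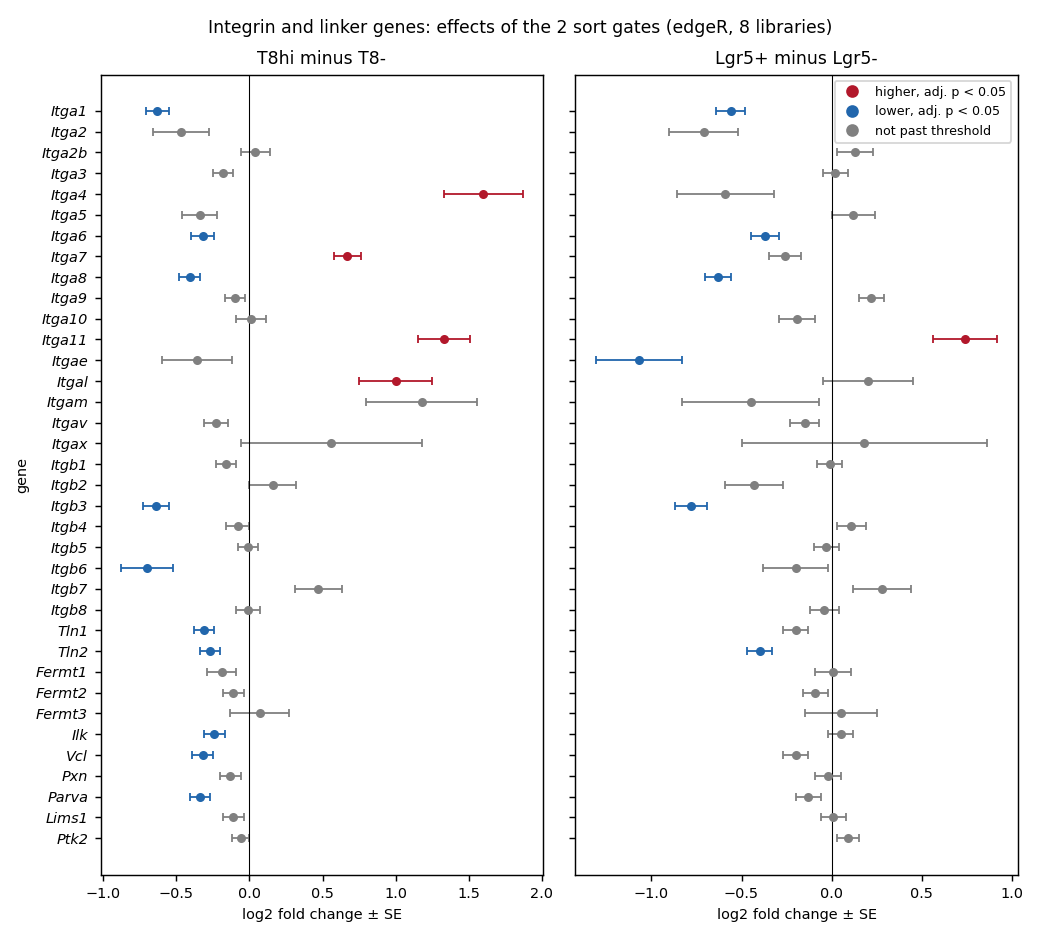
Fitted log2 fold change with its standard error for each of the 36 genes, T8hi minus T8- on the left and Lgr5+ minus Lgr5- on the right, from edgeR on 8 libraries. Of the coloured genes past the threshold, 4 are higher and 10 lower in T8hi cells, and 1 is higher and 6 are lower in Lgr5+ cells.

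**Figure D3:**
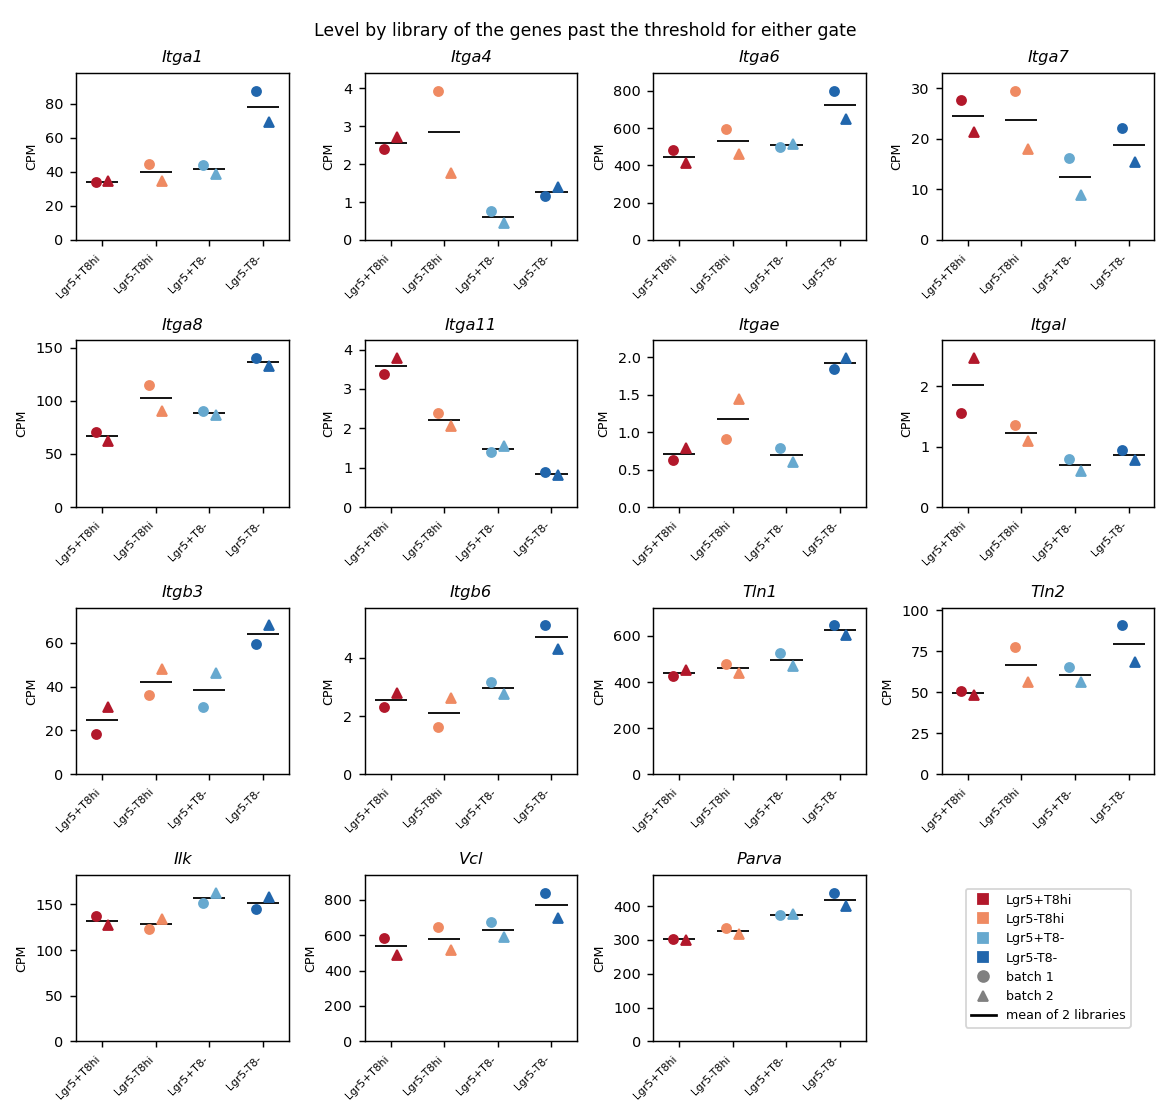
CPM in each library of the 15 genes past the threshold for either gate, with each population's mean of 2 libraries as a line. Itga1, Itga6, Itga8, Itgae, Itgb3, Itgb6, Tln1, Tln2, Vcl and Parva have their highest mean in Lgr5-T8- cells. The highest mean lies in Lgr5+T8hi cells for Itga7, Itga11 and Itgal, in Lgr5-T8hi cells for Itga4 and in Lgr5+T8- cells for Ilk.

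Among the laminin receptors, Itga6 was lower behind both gates and Itga7 was higher in T8hi cells, while Itga3 and Itgb4 passed in neither. Itga6 (chromosome 2, 71786886 to 71858427, GRCm38.p6) encodes the alpha subunit that pairs with Itgb1 or, in hemidesmosomes, with Itgb4. Its level was 480.2 and 414 CPM in the Lgr5+T8hi libraries, 593 and 463 CPM in the Lgr5-T8hi libraries, 499.6 and 515 CPM in the Lgr5+T8- libraries and 798 and 650.0 CPM in the Lgr5-T8- libraries. Both Lgr5-T8- libraries lay above the other 6, which ran from 414 to 593 CPM. The log2 difference was -0.32 ± 0.08 (SE) for T8hi minus T8- (edgeR adjusted p = 0.0148) and -0.37 ± 0.08 for Lgr5+ minus Lgr5- (edgeR adjusted p = 0.0112). Of the alpha subunit RPKM, Itga6 held 31 ± 0.819% in the Lgr5+T8hi libraries, 34.3 ± 0.581% in the Lgr5-T8hi libraries, 30.9 ± 3.46% in the Lgr5+T8- libraries and 37.5 ± 2.77% in the Lgr5-T8- libraries (SD, n = 2). The T8 call did not hold without Lgr5+T8hi replicate 1 (0.0741) or 2 (0.0788), Lgr5-T8hi replicate 2 (0.137), Lgr5+T8- replicate 2 (0.0866) or the batch term (0.325), with edgeR, DESeq2 and limma-voom adjusted p of 0.0015 to 0.325 over its 14 alternatives. The Lgr5 call did not hold without Lgr5-T8hi replicate 1 (0.0986), Lgr5+T8- replicate 1 (0.0587), Lgr5+T8hi replicate 1 (0.0659) or 2 (0.0611) or the batch term (0.331), in a range of 0.000221 to 0.331.

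Itga7 (chromosome 10, 128933421 to 128958286) encodes a laminin receptor subunit best known from skeletal and smooth muscle. Levels were 27.7 and 21.3 CPM in the Lgr5+T8hi libraries, 29.4 and 17.9 CPM in the Lgr5-T8hi libraries, 16.2 and 8.81 CPM in the Lgr5+T8- libraries and 22.1 and 15.3 CPM in the Lgr5-T8- libraries. The lowest population was Lgr5+T8-, and in each batch both T8hi libraries exceeded both T8- libraries, although the pooled ranges overlapped. The log2 difference for T8hi minus T8- was 0.67 ± 0.09 (edgeR adjusted p = 0.000369), with 0.59 in batch 1 and 0.75 in batch 2. It lost the call only without the batch term (0.243), in a range of 5.12e-07 to 0.243 over 14 alternatives. The gene also differed between the batches, by -0.62 ± 0.09 on the log2 scale for batch 2 minus batch 1 (edgeR adjusted p = 0.000483).

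Itga3, which with Itgb1 forms the main laminin receptor outside hemidesmosomes, averaged 483 ± 74 CPM in T8hi and 547 ± 87.1 CPM in T8- libraries (SD, n = 4 each), and its log2 difference of -0.18 ± 0.07 did not pass (edgeR adjusted p = 0.0969). Itgb4 averaged 253 ± 60.3 CPM in T8hi and 266 ± 55.2 CPM in T8- libraries (edgeR adjusted p = 0.528). Itgb1 averaged 926 ± 95 CPM in T8hi and 1029.6 ± 71.7 CPM in T8- libraries, a log2 difference of -0.16 ± 0.07 (edgeR adjusted p = 0.175). By Lgr5 status these 3 genes had log2 differences of -0.01 to 0.11, none past the threshold.

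The collagen receptors moved in opposite directions. Itga1, which with Itgb1 binds the collagens of basement membranes, was lower behind both gates, and Itga11, a receptor for fibrillar collagens best known from fibroblasts, was higher behind both. Itga1 (chromosome 13, 114958079 to 115101964) had 33.8 and 34.4 CPM in the Lgr5+T8hi libraries, 44.7 and 34.7 CPM in the Lgr5-T8hi libraries, 44.2 and 38.6 CPM in the Lgr5+T8- libraries and 87.3 and 69 CPM in the Lgr5-T8- libraries. The Lgr5-T8- libraries stood apart from the other 6, which ran from 33.8 to 44.7 CPM. Its log2 difference was -0.63 ± 0.08 for T8hi minus T8- (0.65-fold, edgeR adjusted p = 0.000163) and -0.56 ± 0.08 for Lgr5+ minus Lgr5- (0.68-fold, edgeR adjusted p = 0.000562). The T8 call held in all 14 alternatives (adjusted p 4.77e-09 to 0.0295), and the Lgr5 call in all except the fit without the batch term (0.0815).

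Itga11 (chromosome 9, 62677855 to 62783979) had 3.37 and 3.78 CPM in the Lgr5+T8hi libraries, 2.39 and 2.05 CPM in the Lgr5-T8hi libraries, 1.39 and 1.55 CPM in the Lgr5+T8- libraries and 0.879 and 0.809 CPM in the Lgr5-T8- libraries. No 2 populations overlapped, and each T8hi library lay above each T8- library. The counts behind these values were 22 to 117 per library. For T8hi minus T8-, the fitted log2 difference was 1.33 ± 0.18 (2.52-fold, edgeR adjusted p = 0.000361) and held in all 14 alternatives (1.28 to 1.41, adjusted p 2.64e-05 to 0.00843). For Lgr5+ minus Lgr5- it was 0.74 ± 0.18 (edgeR adjusted p = 0.0238). That call did not hold in DESeq2 (0.0801), without the batch term (0.116), or without Lgr5-T8hi replicate 1 (0.0654) or 2 (0.114), Lgr5+T8- replicate 1 (0.0645) or 2 (0.0713) or Lgr5+T8hi replicate 1 (0.0785) or 2 (0.104), in a range of 0.0173 to 0.116. Fibroblast markers moved the same way by T8, as given above, with the collagen gene Col1a2 at 255 ± 32.6 CPM in the Lgr5+T8hi libraries, 149 ± 24.1 CPM in the Lgr5-T8hi libraries, 65.2 ± 1 CPM in the Lgr5+T8- libraries and 67 ± 5.37 CPM in the Lgr5-T8- libraries, and their part in Itga11 was not tested.

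Itga2 and Itga10, the other collagen-binding subunits, did not pass for either gate. Itga2, the neighbour of Itga1 on chromosome 13 (114833081 to 114932100), had population means of 17.3 ± 3.51 CPM in the Lgr5+T8hi libraries, 25.5 ± 1.24 CPM in the Lgr5-T8hi libraries, 22 ± 8.71 CPM in the Lgr5+T8- libraries and 38.6 ± 5.94 CPM in the Lgr5-T8- libraries (SD, n = 2). Its log2 differences were -0.47 ± 0.19 by T8 (edgeR adjusted p = 0.165) and -0.71 ± 0.19 by Lgr5 (edgeR adjusted p = 0.0746). Itga10 averaged 11.9 ± 2.32 CPM in T8hi and 12 ± 3.92 CPM in T8- libraries, and 33.5% of its exonic bases also belong to Gm42957 on the same strand.

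Of the subunits that bind the Arg-Gly-Asp motif, Itga8 and Itgb3 were lower behind both gates and Itgb6 was lower in T8hi cells. Itga8 (chromosome 2, 12106632 to 12301985) encodes the partner of Itgb1 that binds nephronectin in the developing mouse kidney. It had 71 and 62.6 CPM in the Lgr5+T8hi libraries, 115 and 90.6 CPM in the Lgr5-T8hi libraries, 90.2 and 86.3 CPM in the Lgr5+T8- libraries and 140.1 and 133 CPM in the Lgr5-T8- libraries. Every Lgr5+ library lay below every Lgr5- library, by a narrow margin between Lgr5+T8- and Lgr5-T8hi, whereas T8hi and T8- libraries overlapped. The log2 difference was -0.41 ± 0.07 for T8hi minus T8- (edgeR adjusted p = 0.00154) and -0.63 ± 0.07 for Lgr5+ minus Lgr5- (edgeR adjusted p = 0.000134). The Lgr5 call held in all 14 alternatives (adjusted p 2.55e-12 to 0.034), and the T8 call in all except the fit without the batch term (0.0839).

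Itgb3 (chromosome 11, 104608000 to 104670476) pairs with Itgav as a vitronectin receptor and with Itga2b on platelets. Its level was 18.5 and 30.6 CPM in the Lgr5+T8hi libraries, 36.1 and 48 CPM in the Lgr5-T8hi libraries, 30.6 and 46.1 CPM in the Lgr5+T8- libraries and 59.6 and 67.9 CPM in the Lgr5-T8- libraries. In each batch the order was the same, Lgr5+T8hi lowest and Lgr5-T8- highest, and batch 2 was higher in every population. By T8, Itgb3 differed by -0.64 ± 0.09 on the log2 scale (0.64-fold, edgeR adjusted p = 0.000406) and by Lgr5 by -0.78 ± 0.09 (0.58-fold, edgeR adjusted p = 0.000152). These calls did not hold without the batch term (0.149 and 0.15) and held in the other 13 alternatives. Among platelet markers, of the 12 listed, 5 were tested and 1 passed by T8, 0 passed by Lgr5 (edgeR, DESeq2 and limma-voom, with 1 at an unadjusted edgeR p below 0.05), the sums were 17.1 to 25.6 CPM, and Ppbp, Gp9, Gp6, Treml1, Clec1b and F2rl2 were at 0 in some libraries. Itga2b, the platelet partner, averaged 27.7 ± 3.97 CPM in T8hi and 27.6 ± 8.23 CPM in T8- libraries.

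Itgb6, an epithelial partner of Itgav that activates latent TGF-beta, had 2.31 and 2.8 CPM in the Lgr5+T8hi libraries, 1.62 and 2.61 CPM in the Lgr5-T8hi libraries, 3.18 and 2.75 CPM in the Lgr5+T8- libraries and 5.12 and 4.3 CPM in the Lgr5-T8- libraries. T8hi and T8- libraries met at 2.8 and 2.75 CPM, and the Lgr5-T8- libraries were highest. The log2 difference for T8hi minus T8- was -0.70 ± 0.18 (edgeR adjusted p = 0.0205). It did not pass without Lgr5-T8hi replicate 1 (0.176), Lgr5+T8- replicate 1 (0.106), Lgr5-T8- replicate 1 (0.0764), Lgr5+T8hi replicate 1 (0.151) or 2 (0.061) or the batch term (0.123), in a range of 0.00638 to 0.176. The other partners of Itgav did not pass, with Itgb5 at 122 ± 15.4 CPM in T8hi and 123 ± 17.4 CPM in T8- libraries and Itgb8, which also activates latent TGF-beta, at 28.3 to 36.8 CPM in T8hi and 31.4 to 38.8 CPM in T8- libraries. Their log2 differences were both -0.01, with standard errors of 0.07 for Itgb5 and 0.08 for Itgb8. Itgav itself averaged 211 ± 13.1 CPM in T8hi and 248 ± 30.4 CPM in T8- libraries (log2 difference -0.23 ± 0.08, edgeR adjusted p = 0.0767). Itga5, the fibronectin receptor subunit, averaged 192 ± 45.3 CPM in T8hi and 254 ± 105 CPM in T8- libraries (edgeR adjusted p = 0.105), and by T8 it differed by -0.57 in batch 1 and -0.09 in batch 2.

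Itga4, known from leukocytes and from neural crest and as a receptor for vascular cell adhesion molecule and fibronectin, was the gene with the largest T8 difference among those that passed. It had 2.39 and 2.72 CPM in the Lgr5+T8hi libraries, 3.93 and 1.76 CPM in the Lgr5-T8hi libraries, 0.756 and 0.439 CPM in the Lgr5+T8- libraries and 1.15 and 1.4 CPM in the Lgr5-T8- libraries, from 11 to 143 counts. All T8hi libraries lay above all T8- libraries. The log2 difference was 1.60 ± 0.27 (3.04-fold, edgeR adjusted p = 0.00216) and held in all 14 alternatives, at 1.28 to 1.84 (adjusted p 3.77e-05 to 0.0297). By Lgr5 it was -0.59 ± 0.27 (edgeR adjusted p = 0.23). Of the exonic bases of Itga4, 8.04% also lie in Cerkl on the opposite strand, and the use of strand in counting is not stated. Itga9, a relative that binds tenascin-C and is far more abundant here, averaged 154 ± 11.2 CPM in T8hi and 166 ± 21.7 CPM in T8- libraries. In Lgr5+ libraries it averaged 172 ± 10.3 CPM and in Lgr5- libraries 148 ± 14.1 CPM (log2 difference 0.22 ± 0.07, edgeR adjusted p = 0.0972).

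The subunits of leukocyte integrins (Itgae, Itgal, Itgam, Itgax, Itgb2 and Itgb7) were scarce. Their summed level was 13.8 and 16.8 CPM in the Lgr5+T8hi libraries, 12.9 and 10.4 CPM in the Lgr5-T8hi libraries, 9.64 and 6.86 CPM in the Lgr5+T8- libraries and 14.7 and 10.8 CPM in the Lgr5-T8- libraries. The 21 leukocyte markers summed to 51.5 and 70.5 CPM in the Lgr5+T8hi libraries, 30.5 and 31.2 CPM in the Lgr5-T8hi libraries, 23.9 and 20.3 CPM in the Lgr5+T8- libraries and 30.6 and 25 CPM in the Lgr5-T8- libraries. Of the 16 markers tested, 9 were higher in T8hi cells and 0 were lower in edgeR, with 0 lower also at an unadjusted p below 0.05 and in DESeq2 and limma-voom. Ms4a1, Nkg7, S100a8, S100a9 and Flt3 were at 0 in some libraries, and Ptprc, the pan-leukocyte marker, ran from 1.04 to 8.51 CPM. Both sums were highest in a Lgr5+T8hi library and lowest in a Lgr5+T8- library, and the part of leukocytes in these genes was not tested.

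Itgal, the alpha subunit of the lymphocyte receptor for intercellular adhesion molecules, had 1.56 and 2.46 CPM in the Lgr5+T8hi libraries, 1.35 and 1.09 CPM in the Lgr5-T8hi libraries, 0.787 and 0.598 CPM in the Lgr5+T8- libraries and 0.94 and 0.772 CPM in the Lgr5-T8- libraries. All T8hi libraries lay above all T8- libraries, on 15 to 65 counts. On the log2 scale T8hi minus T8- was 1.00 ± 0.25 (edgeR adjusted p = 0.0174). The call did not hold without Lgr5-T8hi replicate 1 (0.0886), Lgr5+T8- replicate 2 (0.0842), Lgr5+T8hi replicate 2 (0.107) or the batch term (0.0667), in a range of 0.00881 to 0.107. Itgae, which with Itgb7 binds E-cadherin on epithelial cells, had 0.634 and 0.794 CPM in the Lgr5+T8hi libraries, 0.906 and 1.44 CPM in the Lgr5-T8hi libraries, 0.787 and 0.598 CPM in the Lgr5+T8- libraries and 1.85 and 1.99 CPM in the Lgr5-T8- libraries. Every Lgr5+ library lay below every Lgr5- library. The log2 difference for Lgr5+ minus Lgr5- was -1.07 ± 0.24 (0.48-fold, edgeR adjusted p = 0.0151). It did not pass without Lgr5+T8hi replicate 1 (0.0954) or 2 (0.0609), Lgr5-T8hi replicate 2 (0.0879), Lgr5+T8- replicate 2 (0.0608) or the batch term (0.102), in a range of 0.00716 to 0.102 over 13 alternatives.

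Itgb2, the common beta subunit of leukocytes, averaged 3.84 ± 0.363 CPM in T8hi and 3.64 ± 1.63 CPM in T8- libraries, and did not pass (edgeR adjusted p = 0.555). Itgb7 averaged 5.74 ± 1.57 CPM in T8hi and 4.12 ± 1.07 CPM in T8- libraries (edgeR adjusted p = 0.0669). Itgam, on macrophages and neutrophils, averaged 0.938 ± 0.455 CPM in T8hi and 0.43 ± 0.262 CPM in T8- libraries (edgeR adjusted p = 0.0568), and 68.7% of its exonic bases also belong to Gm49368 on the same strand, so its counts are uncertain. Fermt3, the kindlin of blood cells, averaged 1.55 ± 0.445 CPM in T8hi and 1.46 ± 0.265 CPM in T8- libraries (edgeR adjusted p = 0.869).

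**Figure D4:**
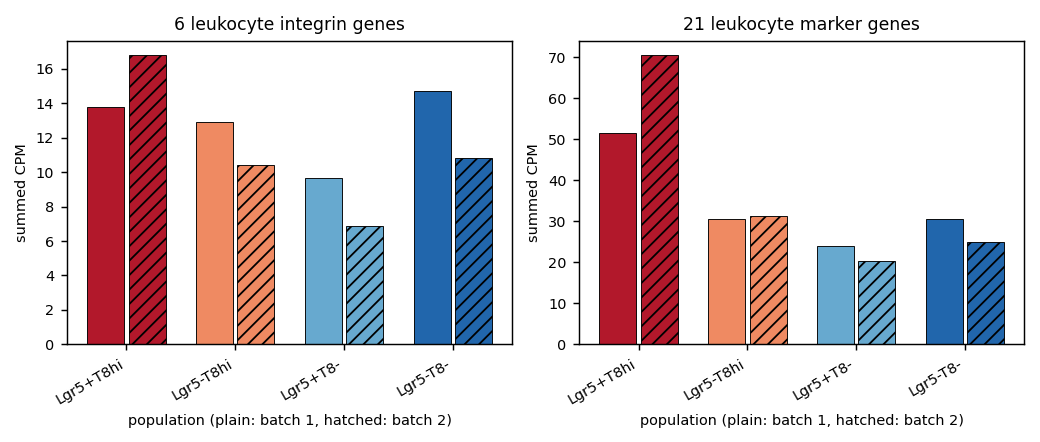
Summed CPM of 6 leukocyte integrin genes (left) and of 21 leukocyte marker genes (right) in each library, with plain bars for batch 1 and hatched bars for batch 2. Marker sums reach 51.5 and 70.5 CPM in Lgr5+T8hi libraries and lie between 20.3 and 31.2 CPM in the others, whereas the integrin sums run from 6.86 to 16.8 CPM with the populations overlapping.

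Among the 11 linkers, 5 were lower in T8hi cells and 0 were higher by edgeR, with 0 higher also at an unadjusted p below 0.05, in DESeq2 and in limma-voom. That is 45.5% of the linkers, beside 14.6% of all genes tested, of which 5.52% were lower. The median log2 difference of the linkers was -0.19, beside -0.02 over all genes, and 10 of the 11 values were negative (90.9%), as were 55.1% of those of all genes. By Lgr5, Tln2 was the linker that passed, which is 9.09% of the linkers, the same as the 9.09% of all genes tested. Tln1 encodes the talin of most tissues, which binds the beta tail and links it to actin. Its level was 425 and 453 CPM in the Lgr5+T8hi libraries, 480.4 and 439 CPM in the Lgr5-T8hi libraries, 525 and 469.9 CPM in the Lgr5+T8- libraries and 646 and 606 CPM in the Lgr5-T8- libraries. The Lgr5-T8- libraries were highest, and T8hi and T8- libraries overlapped between 469.9 and 480.4 CPM. The T8 difference was -0.31 ± 0.07 on the log2 scale (edgeR adjusted p = 0.01). It did not pass without Lgr5-T8hi replicate 1 (0.0877) or 2 (0.0907), Lgr5+T8- replicate 1 (0.0598), Lgr5+T8hi replicate 1 (0.0973) or the batch term (0.198), in a range of 0.000595 to 0.198.

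Tln2 (chromosome 9, 67217085 to 67634045), the talin best known from heart and brain, had 50.7 and 48.3 CPM in the Lgr5+T8hi libraries, 77.4 and 56.6 CPM in the Lgr5-T8hi libraries, 65.2 and 56.3 CPM in the Lgr5+T8- libraries and 90.9 and 68.7 CPM in the Lgr5-T8- libraries. Both Lgr5+T8hi libraries were lowest, and the Lgr5-T8hi libraries overlapped those of both T8- populations. Its log2 difference was -0.40 ± 0.07 by Lgr5 (edgeR adjusted p = 0.00469), lost only without the batch term (0.273) over a range of 0.000344 to 0.273. By T8 it was -0.27 ± 0.07 (edgeR adjusted p = 0.027). That call did not hold without Lgr5-T8hi replicate 1 (0.0632) or 2 (0.183), Lgr5+T8- replicate 1 (0.0656) or 2 (0.11), Lgr5-T8- replicate 1 (0.075), Lgr5+T8hi replicate 1 (0.198) or the batch term (0.437), in a range of 0.00973 to 0.437.

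Vcl encodes vinculin, which reinforces the link between talin and actin under tension. It had 586 and 488 CPM in the Lgr5+T8hi libraries, 647 and 515 CPM in the Lgr5-T8hi libraries, 672 and 590.0 CPM in the Lgr5+T8- libraries and 841 and 697 CPM in the Lgr5-T8- libraries. Within each batch both T8hi libraries lay below both T8- libraries. Its T8 difference was -0.32 ± 0.07 on the log2 scale (edgeR adjusted p = 0.00588), lost without Lgr5-T8hi replicate 1 (0.0586) or 2 (0.078) and without the batch term (0.342), in a range of 5.34e-05 to 0.342. Of the exonic bases of Vcl, 25.5% also lie in Ap3m1 on the opposite strand.

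Ilk and Parva, the scaffold and the actin-binding arm of the complex of integrin-linked kinase, PINCH and parvin, were lower in T8hi cells with no overlap between T8hi and T8- libraries. Parva had 304 and 299.8 CPM in the Lgr5+T8hi libraries, 334 and 317 CPM in the Lgr5-T8hi libraries, 374 and 376 CPM in the Lgr5+T8- libraries and 440.2 and 399 CPM in the Lgr5-T8- libraries, a log2 difference of -0.34 ± 0.07 (edgeR adjusted p = 0.00408). It did not pass without Lgr5-T8hi replicate 1 (0.0557) or the batch term (0.124), in a range of 4.01e-05 to 0.124. Ilk had 137 and 127 CPM in the Lgr5+T8hi libraries, 123 and 134 CPM in the Lgr5-T8hi libraries, 152 and 163 CPM in the Lgr5+T8- libraries and 145 and 158 CPM in the Lgr5-T8- libraries, a log2 difference of -0.24 ± 0.07 (edgeR adjusted p = 0.0294). Its call did not hold without Lgr5-T8hi replicate 1 (0.273) or 2 (0.106), Lgr5+T8- replicate 1 (0.0851) or 2 (0.0965), Lgr5+T8hi replicate 2 (0.173) or the batch term (0.262), in a range of 0.0193 to 0.273. Since 76.7% of the exonic bases of Ilk also lie in Taf10 on the opposite strand, its counts are uncertain. Lims1, the PINCH subunit of the complex, averaged 91.7 ± 4.38 CPM in T8hi and 98.9 ± 7.61 CPM in T8- libraries and did not pass (log2 difference -0.11 ± 0.07, edgeR adjusted p = 0.349).

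Of the remaining linkers, the kindlins Fermt1, the epithelial form, and Fermt2, the widely expressed form, averaged 135 ± 12.2 and 246 ± 31.1 CPM in T8hi libraries and 154 ± 25.4 and 265 ± 27.9 CPM in T8- libraries. Pxn, the adaptor paxillin, averaged 353 ± 53.1 CPM in T8hi and 389 ± 71.7 CPM in T8- libraries. Ptk2, which encodes focal adhesion kinase, averaged 60.5 ± 2.94 CPM in T8hi and 63.3 ± 3.6 CPM in T8- libraries. None of these 4 genes passed by T8, with log2 differences of -0.19 to -0.06.

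Promoters of genes that were lower in T8hi cells were searched for the CArG box, the motif bound by serum response factor, which drives many contractile and adhesion genes, and for GGAATG, the motif of TEAD factors. Both strands of the 250 bases before the start were read from RefSeq promoters of GRCm38.p6, which held 25 of the 36 genes and 6 of the 10 lower in T8hi cells. The CArG box was found in 1.47% of 32851 promoters and in those of Fermt2, Itgb6 and Vcl, and GGAATG in 12.6% of promoters and in those of Itga10, Itgb1 and Vcl. The percentages count each start separately. The 25 genes had 30 starts, and a gene was named if any of its starts had a match, so the 2 measures are unlike. A match describes these letters and no more, and Fermt2, Itga10 and Itgb1 did not pass for either gate. Shown are the Vcl (chr14:20929148-20929397, plus strand) and Itgb6 promoters (chr2:60673694-60673943, minus strand, before the start of an internal transcript), which hold the CArG box. For Itgb6 only a start with a match was kept for display. Beside them stand Itga1 (chr13:115101965-115102214, minus strand) and Itga8 (chr2:12301945-12302194, minus strand), which were lower behind both gates and hold neither motif in this window. The start is that of the promoter record. The Vcl and Itga8 windows reach into the RefSeq gene spans, which begin at 20929383 and 12301985 in that order. Capitals mark the CArG box, which begins 227 bases before the start in Vcl and 50 bases before it in Itgb6, and GGAATG, which begins 143 bases before the start in Vcl.
Vcl: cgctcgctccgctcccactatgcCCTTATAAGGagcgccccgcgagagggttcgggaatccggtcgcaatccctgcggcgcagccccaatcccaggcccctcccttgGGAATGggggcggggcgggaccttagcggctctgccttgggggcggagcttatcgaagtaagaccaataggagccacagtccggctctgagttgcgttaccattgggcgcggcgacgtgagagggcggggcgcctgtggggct
Itgb6: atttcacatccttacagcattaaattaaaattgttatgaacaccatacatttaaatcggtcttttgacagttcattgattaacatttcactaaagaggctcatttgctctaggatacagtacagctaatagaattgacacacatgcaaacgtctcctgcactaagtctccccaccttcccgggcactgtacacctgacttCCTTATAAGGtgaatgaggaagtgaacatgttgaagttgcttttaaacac
Itga1: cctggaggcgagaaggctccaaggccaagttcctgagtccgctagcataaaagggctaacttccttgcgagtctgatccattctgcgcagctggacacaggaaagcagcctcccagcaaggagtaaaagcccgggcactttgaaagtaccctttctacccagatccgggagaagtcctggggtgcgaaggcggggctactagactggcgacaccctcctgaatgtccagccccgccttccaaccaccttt
Itga8: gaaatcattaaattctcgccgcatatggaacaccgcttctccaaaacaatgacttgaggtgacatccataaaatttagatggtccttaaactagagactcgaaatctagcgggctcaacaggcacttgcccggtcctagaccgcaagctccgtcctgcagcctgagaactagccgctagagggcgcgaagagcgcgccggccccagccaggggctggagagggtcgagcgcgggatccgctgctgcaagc

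The third question is whether the T8 difference depended on Lgr5 status. The interaction, the T8 difference in Lgr5+ cells minus that in Lgr5- cells, passed with a positive sign for Itga1 and for Itgax, which rested on few reads. Together these 2 genes are 5.56% of the set, beside 2.55% of all genes tested that passed (2.18% positive and 0.363% negative). Itga1 alone is 2.78% of the set, but genes with few reads were not taken out of the share of all genes. Without Lgr5-T8- replicate 1, 1 gene was positive and 2 were negative. Itga1 was 34.1 ± 0.442 CPM in Lgr5+T8hi and 41.4 ± 3.95 CPM in Lgr5+T8- cells, and 39.7 ± 7.02 CPM in Lgr5-T8hi and 78.2 ± 12.9 CPM in Lgr5-T8- cells (SD, n = 2 each). The T8 log2 difference was thus -0.28 ± 0.11 in Lgr5+ cells (edgeR adjusted p = 0.156) and -0.98 ± 0.11 in Lgr5- cells (edgeR adjusted p = 0.000157). The interaction was 0.70 ± 0.15 (edgeR adjusted p = 0.0313), with 0.58 in batch 1 and 0.82 in batch 2. It did not pass without Lgr5-T8hi replicate 1 (0.0568) or 2 (0.167), Lgr5+T8- replicate 1 (0.0763) or 2 (0.103), Lgr5+T8hi replicate 2 (0.218) or the batch term (0.549), in a range of 0.00897 to 0.549.

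Itgax, a subunit of dendritic cells and macrophages, had 17 and 26 counts in the Lgr5+T8hi libraries, 3 and 4 counts in the Lgr5-T8hi libraries, 0 and 4 counts in the Lgr5+T8- libraries and 16 and 9 counts in the Lgr5-T8- libraries, and it passed the filter on low counts through the populations where it was high. Lgr5+T8hi and Lgr5-T8- libraries were above the other 4, which held 4 counts or fewer. The interaction had an edgeR adjusted p of 0.0256, and its fitted size depends on the prior count and is no bound. Asking for 1 CPM or more in 4 libraries left it untested, and it did not pass without Lgr5-T8hi replicate 1 (0.061) or 2 (0.0565), Lgr5+T8- replicate 1 (0.0664), Lgr5-T8- replicate 1 (0.0693), Lgr5+T8hi replicate 1 (0.0891) or 2 (0.194) or the batch term (0.231), in a range of 0.00836 to 0.231. Of 16 leukocyte markers tested, 6 passed with a positive interaction, among them Csf1r, Lyz2 and Ptprc, the last at 7.21 ± 1.84 CPM in the Lgr5+T8hi libraries, 2.22 ± 0.278 CPM in the Lgr5-T8hi libraries, 1.08 ± 0.0544 CPM in the Lgr5+T8- libraries and 1.47 ± 0.153 CPM in the Lgr5-T8- libraries, and their part in Itgax was not tested.

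**Figure D5:**
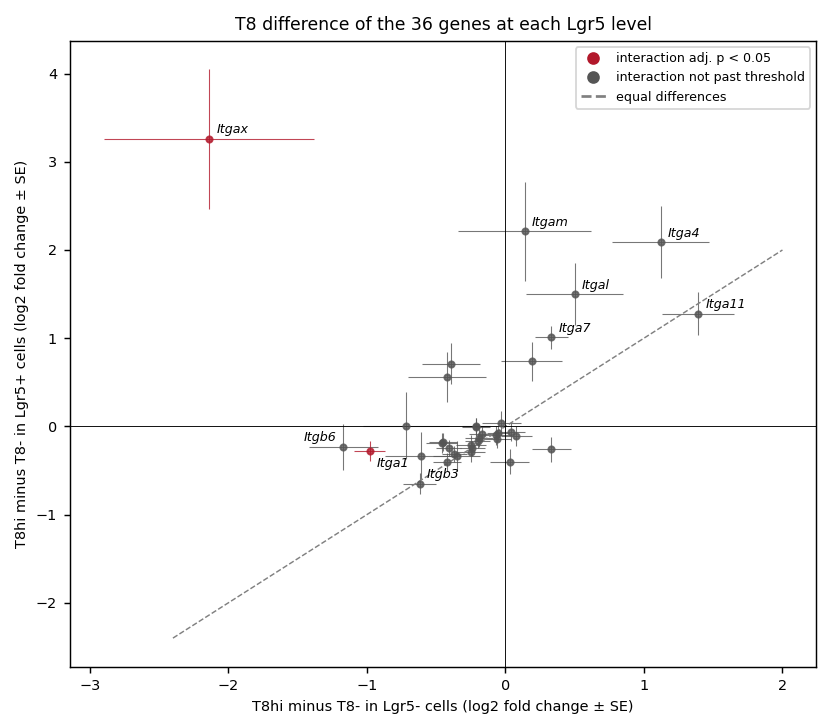
T8hi minus T8- log2 fold change with its standard error in Lgr5- cells (horizontal) and in Lgr5+ cells (vertical) for the 36 genes, where the dashed line marks equal differences. Itga1, at -0.98 in Lgr5- and -0.28 in Lgr5+ cells, and Itgax are coloured for their interaction, and names are given to genes past a threshold whose difference is large.

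Within Lgr5+ cells alone, 6 genes were higher and 2 lower in T8hi cells, 22.2% of the set beside 9.44% of all genes tested (7.27% higher and 2.17% lower). The higher genes were Itga4, Itga7, Itga11, Itgal, Itgam and Itgax, and the lower genes Itga8 and Itgb3. With at least 1 CPM in 4 libraries, where Itgam and Itgax were not tested, 4 were higher and 2 lower. Markers of other cells were higher in the same comparison, for 15 of 15 endothelial, 14 of 15 fibroblast, 13 of 21 luminal, 11 of 16 leukocyte, 8 of 10 pericyte and 3 of 10 Schwann cell genes, and 8 of 16 basal markers were lower. Endothelial sums were 714 and 806 CPM in Lgr5+T8hi and 224 and 170.2 CPM in Lgr5+T8- libraries, and leukocyte sums 51.5 and 70.5 CPM in Lgr5+T8hi and 23.9 and 20.3 CPM in Lgr5+T8- libraries. Their part in the integrin differences was not tested. Itga7 averaged 24.5 ± 4.51 CPM in Lgr5+T8hi and 12.5 ± 5.2 CPM in Lgr5+T8- cells (log2 difference 1.01 ± 0.13, edgeR adjusted p = 0.000415). In Lgr5- cells its difference was 0.33 ± 0.12 (edgeR adjusted p = 0.168), and the interaction did not pass (0.68 ± 0.18, edgeR adjusted p = 0.0791). The count was 5 without Lgr5+T8- replicate 1 or Lgr5+T8hi replicate 1, 3 without Lgr5+T8- replicate 2, 2 without Lgr5+T8hi replicate 2, 13 without either Lgr5-T8- replicate and 1 without the batch term.

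Within Lgr5- cells, 8 genes were lower and 1 was higher in T8hi cells, 25.0% of the set beside 7.06% of all genes tested (3.70% higher and 3.36% lower). The lower genes were Itga1, Itga6, Itga8, Itgb3, Itgb6, Tln1, Vcl and Parva, and the higher gene was Itga11. Here 15 of 21 luminal, 10 of 15 fibroblast, 4 of 10 Schwann cell and 1 of 10 pericyte markers were higher and 8 of 16 basal and 2 of 15 fibroblast markers lower, and 0 of 15 endothelial and 0 of 16 leukocyte markers passed in edgeR, DESeq2 or limma-voom, with 2 leukocyte and 0 endothelial markers at an unadjusted edgeR p below 0.05. Itgb6 averaged 2.12 ± 0.7 CPM in Lgr5-T8hi and 4.71 ± 0.581 CPM in Lgr5-T8- cells, a log2 difference of -1.17 ± 0.25 (edgeR adjusted p = 0.0129). In Lgr5+ cells its difference was -0.23 ± 0.26 (edgeR adjusted p = 0.675), and the interaction did not pass (0.93 ± 0.36, edgeR adjusted p = 0.29). The count was 1 without Lgr5-T8hi replicate 1 and 1 without the batch term, and without Lgr5-T8hi replicate 2 it was 4, with 2 higher and 2 lower.

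By Lgr5 within T8- cells, 8 genes were lower in Lgr5+ cells (Itga1, Itga6, Itga7, Itga8, Itgae, Itgb2, Itgb3 and Tln2), 22.2% of the set beside 8.86% of all genes tested (3.81% higher and 5.05% lower). In that comparison 0 genes were higher in edgeR, DESeq2 and limma-voom, 3 were higher at an unadjusted edgeR p below 0.05, and without Lgr5-T8- replicate 1 edgeR called 4 higher and 5 lower. Itgb2 averaged 2.44 ± 0.119 CPM in Lgr5+T8- and 4.83 ± 1.48 CPM in Lgr5-T8- cells (log2 difference -0.98 ± 0.23, edgeR adjusted p = 0.0179). The count was 5 without either Lgr5+T8- replicate and 0 without the batch term, where 8 had passed. By Lgr5 within T8hi cells, 3 genes passed, 8.33% of the set beside 3.34% of all genes tested (2.29% higher and 1.05% lower). Itga8 and Itgb3 were lower, at 66.8 ± 5.94 and 24.6 ± 8.55 CPM in Lgr5+T8hi and 103 ± 17.3 and 42.1 ± 8.42 CPM in Lgr5-T8hi cells, and Itgax was higher by edgeR. Itgax rested on few reads and passed the filter on low counts through the populations where it was high. With at least 1 CPM in 4 libraries, where Itgax was not tested, 0 genes were higher and 2 lower. Itgax did not pass with RLE size factors or limma-voom, DESeq2 gave it no adjusted p, and 9 of 16 leukocyte markers were higher in the same comparison. The count of 3 was 0 without the batch term, without Lgr5-T8hi replicate 1 and without Lgr5+T8hi replicate 1, and it was 1 without Lgr5+T8hi replicate 2.

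Batch, which the labels number 1 and 2 and which equals the replicate number, divided the set as well. Between the batches 3 genes were higher and 11 lower in batch 2, 38.9% of the set beside 32.9% of all genes tested (16.0% higher and 16.9% lower). Itgb4 was higher in batch 2 by 0.52 ± 0.08 on the log2 scale (edgeR adjusted p = 0.00048), at 314, 295, 341 and 275 CPM in batch 2 and 208, 195, 221 and 228 CPM in batch 1 libraries. Itga5 was lower in batch 2, with a log2 difference of -0.82 ± 0.12 (edgeR adjusted p = 0.00156), at 161, 147, 189 and 143 CPM in batch 2 and 241, 221, 326 and 359.9 CPM in batch 1 libraries, in the order of populations given at the start. Each population had a library in each batch, so the gates are balanced over it.

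Other genes of the pathway were taken from 4 lists chosen by function. Of 57 tested genes of the core adhesome, the proteins found at most integrin adhesions, 18 were lower and 7 higher in T8hi cells, 43.9% beside 14.6% of all genes tested (9.13% higher and 5.52% lower), and the median log2 difference was -0.02, as over all genes. Enah, an actin elongation factor, rose with T8, to 30.9 ± 2.41 CPM in Lgr5+T8hi libraries, against 21.1 ± 2.61 CPM in Lgr5+T8- libraries, and to 19.7 ± 2.59 CPM in Lgr5-T8hi libraries, against 7.34 ± 2.43 CPM in Lgr5-T8- libraries (log2 difference 0.99 ± 0.09, edgeR adjusted p = 2.42e-05). The Enah interaction passed too, with a negative sign (-0.88 ± 0.18, edgeR adjusted p = 0.0282). Tgfb1i1, a paxillin relative, was lower in T8hi cells (-0.49 ± 0.07, edgeR adjusted p = 0.000524). By Lgr5, 5 were higher and 7 lower (21.1%, beside 9.09% of all genes), among them Enah (1.10 ± 0.09, edgeR adjusted p = 1.97e-05), Flnc, an actin cross-linker (0.81 ± 0.11, edgeR adjusted p = 0.00187), and Tns3, a tensin (-0.58 ± 0.08, edgeR adjusted p = 0.000526).

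Among 35 tested regulators of integrin activity, 3 were higher and 1 was lower in T8hi cells, 11.4% of the list, which is below the 14.6% of all genes. Cd82, a tetraspanin like Tspan8, was higher by 0.53 ± 0.07 on the log2 scale (edgeR adjusted p = 0.00024) and the lectin Lgals3 by 0.88 ± 0.11 (edgeR adjusted p = 0.000311), and Kank4, of a family that binds talin, was lower (-0.36 ± 0.06, edgeR adjusted p = 0.00207). By Lgr5, 8 were higher and 3 lower (31.4%, beside 9.09% of all genes). Lgals1 was at 0.75 ± 0.07, Plaur, the urokinase receptor, at 0.56 ± 0.07 and Kank4 at -0.69 ± 0.06 (edgeR adjusted p of 5.13e-05, 0.000497 and 3.98e-05 in that order). For Kank4 the interaction passed as well (0.65 ± 0.13, edgeR adjusted p = 0.0198). Its level was 50.4 ± 9.1 CPM in Lgr5+T8hi and 51.5 ± 7.28 CPM in Lgr5+T8- libraries. In Lgr5-T8hi libraries it was 64.6 ± 8.85 CPM, against 105 ± 23.6 CPM in Lgr5-T8- libraries. Of 7 hemidesmosome partners, 3 were lower in T8hi cells (42.9%, beside 5.52% of all genes lower) and 0 higher in edgeR, at an unadjusted p below 0.05, in DESeq2 and in limma-voom. Among them were the laminin chains Lamb3 (-0.34 ± 0.07) and Lama3 (-0.24 ± 0.07, edgeR adjusted p at most 0.0411). By Lgr5, the tetraspanin Cd151 (0.28 ± 0.06) and the collagen Col17a1 (0.27 ± 0.07) were higher (edgeR adjusted p = 0.0164 and 0.0291), 28.6% of the list beside 4.23% of all genes higher.

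Of 53 tested integrin ligands, 24 were higher and 11 lower in T8hi cells (66.0%, beside 14.6% of all genes), with a median log2 difference of 0.21, beside -0.02 over all genes. In Lgr5+ cells 9 were higher and 11 lower (37.7%, beside 9.09% of all genes), with a median of -0.04, beside 0.01. The difference between ligands and receptors was not tested. Col6a2, a chain of collagen VI, averaged 244 ± 4.11 CPM in the Lgr5+T8hi libraries, 140.1 ± 11.9 CPM in the Lgr5-T8hi libraries, 129 ± 9.69 CPM in the Lgr5+T8- libraries and 49.1 ± 2.02 CPM in the Lgr5-T8- libraries (SD, n = 2), a T8 log2 difference of 1.22 ± 0.07 (edgeR adjusted p = 1.13e-06). Lama1, a laminin chain, ran the other way at 58.9 ± 13.9 CPM in the Lgr5+T8hi libraries, 138 ± 11.5 CPM in the Lgr5-T8hi libraries, 118 ± 29.8 CPM in the Lgr5+T8- libraries and 411 ± 28.6 CPM in the Lgr5-T8- libraries, a T8 log2 difference of -1.29 ± 0.08 (edgeR adjusted p = 2.01e-06) and an Lgr5 difference of -1.53 ± 0.08 (edgeR adjusted p = 1.12e-06). Lama1, like Itga1, Itga6, Itga8 and Itgb3, had its highest mean in Lgr5-T8- cells, as did 31.3% of all genes tested. Col6a2 had its lowest mean there. A link between ligand and receptor levels was not tested. The ligand list shares 4 genes with the fibroblast markers (Fbn1, Col1a1, Col1a2 and Col3a1), whose level moved with the T8 gate as given above.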

How the data were processed

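For each of 8 single-end libraries the authors deposited unnormalized read counts per Entrez gene beside gene lengths. CASAVA, featureCounts, edgeR, limma and mm10 (GRCm38) appear in the submitters' processing notes, without roles. The aligner and the use of strand in counting are not given in the sources used here, and of the 36 genes Itga1, Itga4, Itga7, Itga8, Itga10, Itgam, Itgav, Itgb4, Tln1, Fermt3, Ilk and Vcl share exonic bases with another gene in GENCODE. Gene symbols and positions were taken from RefSeq, GRCm38.p6 (25260 of 27164 identifiers matched, all 36 genes among them).

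Counts were normalized by TMM, filtered with filterByExpr (minimum count 10) and tested, two-sided, with the robust quasi-likelihood F-test of edgeR 4.0.16 in R 4.3.3. All 8 libraries entered a model with terms for population and batch, leaving 3 residual degrees of freedom. On counts simulated from these libraries with known changes, the fit recovered most of the T8 and Lgr5 changes and few of the smaller interaction changes, and in every comparison simulated the share of false calls lay above the threshold. Of the genes, 16526 were tested and 10638 left out. p-values were adjusted by Benjamini-Hochberg across the tested genes of a comparison, at a threshold of 0.05. Within-batch differences used log2 CPM with a prior count of 2. Replicates differed far beyond sampling noise (chi-square per degree of freedom 36.0 to 57.3). The labels' batch equals the replicate number and pairs the libraries: deviations from the population mean were correlated between same-numbered libraries (r of 0.415 to 0.55 across genes, 6 pairs of populations).

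Alternatives were no batch block, RLE size factors, no count filter, limma-voom (limma 3.58.1), DESeq2 1.42.0, at least 1 CPM in 4 libraries, and leaving out each library in turn, whereupon the lone library of a population was assumed to vary like the others. The 36 genes and all lists were chosen with earlier results of these data known. Values per library are given for genes averaging 1 CPM or more that passed for T8, Lgr5 or their interaction. From each pathway list up to 3 genes per comparison with the smallest adjusted p are named.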

Additional observations from a re-analysis of the deposited data

Results flagged for a closer look

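The interaction term of edgeR's fit, the T8 difference in Lgr5+ cells minus that in Lgr5- cells, passed the threshold for Itga1 and Itgax, and both calls depended on single libraries. For Itga1, the interaction was 0.70 ± 0.15 on the log2 scale (adjusted p = 0.0313), with -0.28 ± 0.11 in Lgr5+ and -0.98 ± 0.11 in Lgr5- cells, and did not pass under 6 of 14 alternatives. For Itgax, the fitted interaction was 5.39 ± 1.10 (adjusted p = 0.0256) on 17 and 26 counts in Lgr5+T8hi, 3 and 4 in Lgr5-T8hi, 0 and 4 in Lgr5+T8- and 16 and 9 in Lgr5-T8- libraries, a size that depends on the prior count. It passed the count filter through the populations where it was high and did not pass under 7 of the 13 alternatives that tested it, so its values are a description.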

How the results depend on the processing

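For T8, Lgr5 and the interaction, 23 gene results were past the threshold, and none of these changed sign under any alternative that tested it. The alternatives reuse the same libraries and the 23 were picked for passing, so an unchanged sign was likely beforehand. Signs were not checked for the other genes and comparisons. RLE size factors, no count filter and limma-voom kept all 23 calls, DESeq2 kept 22, and the filter of at least 1 CPM in 4 libraries kept the 21 it tested. The batch block mattered most: without it 4 of the 23 calls held, and the counts of genes past the threshold were 3 for T8, 1 for Lgr5, 0 for the interaction, 1 for T8 in Lgr5+ cells, 1 for T8 in Lgr5- cells, 0 for Lgr5 in T8hi cells and 0 for Lgr5 in T8- cells, against 14, 7, 2, 8, 9, 3 and 8 with it. With at least 1 CPM in 4 libraries, 1 gene passed for the interaction, and Itgax was not tested. Leaving out each library in turn gave 7 to 18 genes for T8, 4 to 10 for Lgr5, 0 to 3 for the interaction, 2 to 13 for T8 in Lgr5+ cells, 1 to 13 for T8 in Lgr5- cells, 0 to 4 for Lgr5 in T8hi cells and 5 to 11 for Lgr5 in T8- cells. The causes were not tested, beyond the loss of a library in the last group of settings. Itgax rested on 0 to 26 counts per library, with 2 libraries per population.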
